A study of Homo sapiens with 6 samples.

Results

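The genes described here are 41 chaperone and heat shock genes, chosen by name from the 61541 Ensembl genes of the deposited count table. They code for the cytosolic HSP70, HSP110 and HSP90 families with their co-chaperones, the mitochondrial chaperones, the 8 subunits of the cytosolic chaperonin CCT/TRiC, a small heat shock protein and the heat shock factors HSF1 and HSF2. SERPINH1 (HSP47), a collagen chaperone of the endoplasmic reticulum, is also a member, although it is neither a cytosolic nor a mitochondrial protein. All 41 genes were found in the table, and all 41 passed the filter on low counts.

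RNA was measured by RNA-seq in luciferases-expressing HepG2 cells, a human hepatoblastoma line that here holds SLR3 and ELuc luciferase reporters in both groups. The cells were exposed for 24 h to sedanolide, a phthalide of celery, at 100 μM (3 libraries) or served as control (3 libraries). The labels do not name a vehicle for the control. No source says whether libraries of a group came from separate cultures, so that p-values measure only the spread between these libraries.

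Chaperones of the HSP70 family bind unfolded stretches of proteins in a cycle of ATP hydrolysis, which J-domain proteins start and nucleotide exchange factors of the HSP110 and BAG families end. HSP90 takes over clients such as kinases and steroid receptors with the help of co-chaperones, and CCT/TRiC folds actin and tubulin inside a closed chamber. When unfolded proteins accumulate, HSF1 is released from chaperones, forms trimers and binds heat shock elements, which are inverted repeats of nGAAn, in the promoters of many of these genes. Some electrophilic compounds are known to activate HSF1 as well as NRF2. The question addressed here was whether chaperone transcripts differed between sedanolide-treated and control cells.

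To find letter matches to such elements, the 250 bases before each RefSeq start (GRCh38.p14) were searched on both strands. The search used the 13 letters GAANNTTCNNGAA, which stand for 3 alternating repeats. This motif was found in 155 of 35116 promoters (0.441%) and, counted by gene symbol, in 152 of 27305 (0.557%). Of the members, 36 had a promoter in the table, and 7 of them held the motif (19.4%). HSPA14, FKBP4, CCT6A, HSF1 and STUB1 had no entry. The stretches with the motif are given 5′ to 3′ on the strand of the gene, with the motif run in capitals. They are matches of letters, and binding of HSF1 to them was not measured.
HSPD1, chr2:197500063-197500090, minus strand, with 2 overlapping matches: gcattTTCTGGAAAGTTCTGGAAccgag
HSP90AB1, chr6:44247770-44247798, plus strand: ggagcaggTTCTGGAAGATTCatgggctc
HSP90AB1, chr6:44247823-44247851, plus strand: tgagattgTTCTGGAAGCTTCtggattct
DNAJB6, chr7:157336865-157336893, plus strand: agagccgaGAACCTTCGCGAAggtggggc
SERPINH1, chr11:75562169-75562197, plus strand: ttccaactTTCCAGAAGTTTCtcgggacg
CHORDC1, chr11:90223084-90223112, minus strand, with 3 overlapping matches: ccgGAAAATTCGCGAAGGTTCCTGAAacg
HSPA8, chr11:123062346-123062374, minus strand: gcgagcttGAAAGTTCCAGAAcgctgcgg
HSPA8, chr11:123062171-123062199, minus strand: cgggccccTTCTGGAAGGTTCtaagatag
HSP90AA1, chr14:102087112-102087140, minus strand: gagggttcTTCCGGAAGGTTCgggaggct
The last motif base of these runs lay between 37 bases (CHORDC1) and 227 bases (HSPD1) before the start. In GENCODE 44, 6 of these 7 windows of 250 bases overlap annotated exons, by 58 bases (DNAJB6) to all 250 (HSPA8). The window of HSP90AA1 (chr14:102087045-102087294, minus strand) is the only one of the 7 without exon bases, and for that reason the only one given whole, again with the motif in capitals.
HSP90AA1: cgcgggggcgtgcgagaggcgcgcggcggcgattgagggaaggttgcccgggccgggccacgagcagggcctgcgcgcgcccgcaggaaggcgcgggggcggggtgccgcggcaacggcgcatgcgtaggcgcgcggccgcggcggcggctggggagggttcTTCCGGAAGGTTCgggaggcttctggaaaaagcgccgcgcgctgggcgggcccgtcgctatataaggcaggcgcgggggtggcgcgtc

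Total expected counts were between 16420258 and 26714853 per library. The first principal component of log2 CPM (56.1% of the variance) separated control 1, control 2 and sedanolide 3, called side A here, from control 3, sedanolide 1 and sedanolide 2, called side B. Mitochondrially encoded genes took 1.43% to 2.15% of the counts on side A and 4.23% to 5.22% on side B. The sides are not a batch given by the labels. All 12 hepatocyte markers were expressed, with summed values of 32832 to 49923 CPM in control cells and 23935 to 41622 CPM in sedanolide-treated cells. Of 6 fibroblast, 6 leukocyte and 4 endothelial markers, 5, 2 and 3 had at most 3 counts in any library, among them COL1A1, PTPRC, CD3E and VWF. The remaining fibroblast marker was PDGFRB, and the sum of this list was 15.2 to 24.6 CPM in control and 5.26 to 11.4 CPM in sedanolide-treated cells. The leukocyte list, which was mostly LYZ (456 to 1358 CPM per library), summed to 830 to 1376 CPM in control and 478 to 781 CPM in sedanolide-treated cells, and the endothelial list to 4.14 to 5.24 and 3.91 to 5.13 CPM. The part of the differences in these markers and in the mitochondrial share in the results was not tested. In bulk RNA, fewer cells of a type and less RNA per cell cannot be told apart.

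Most chaperone transcripts had higher mean levels in sedanolide-treated cells, but with edgeR none of them passed the thresholds, whereas DESeq2 called 3 (BAG2, DNAJB4 and HSPH1). With edgeR's quasi-likelihood test, 0 of 41 members passed both thresholds (FDR 0.05, 1.5-fold), which 95 of all 14104 genes and reporters tested did (0.674%). The fitted log2 fold change was positive in 37 members and negative in 4 (HSPB1, DNAJB6, BAG1 and SERPINH1), whereas it was positive in 50.7% of all genes tested. Its median over the members was 0.33, against 0.01 over all genes tested, and its range was -0.44 to 0.77. At an unadjusted p-value under 0.05, 9 members were higher and 0 were lower, compared with 5.35% and 6.57% of all genes tested. The 9 members were FKBP4, DNAJB4, BAG2, HSPH1, HSP90AA1, CHORDC1, BAG3, PTGES3 and HSPA4L. This count moved with every library that was left out. It was 4 without control 1, 4 without control 2, 17 without control 3, 5 without sedanolide 1, 4 without sedanolide 2 and 22 without sedanolide 3. The median was 0.22 without control 2 or without sedanolide 1 and at most 0.48, without control 3. The members share regulators and libraries, and they are not independent of one another. They were also chosen with earlier results of these data known, which limits the comparison with all genes tested.

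**Figure D1:**
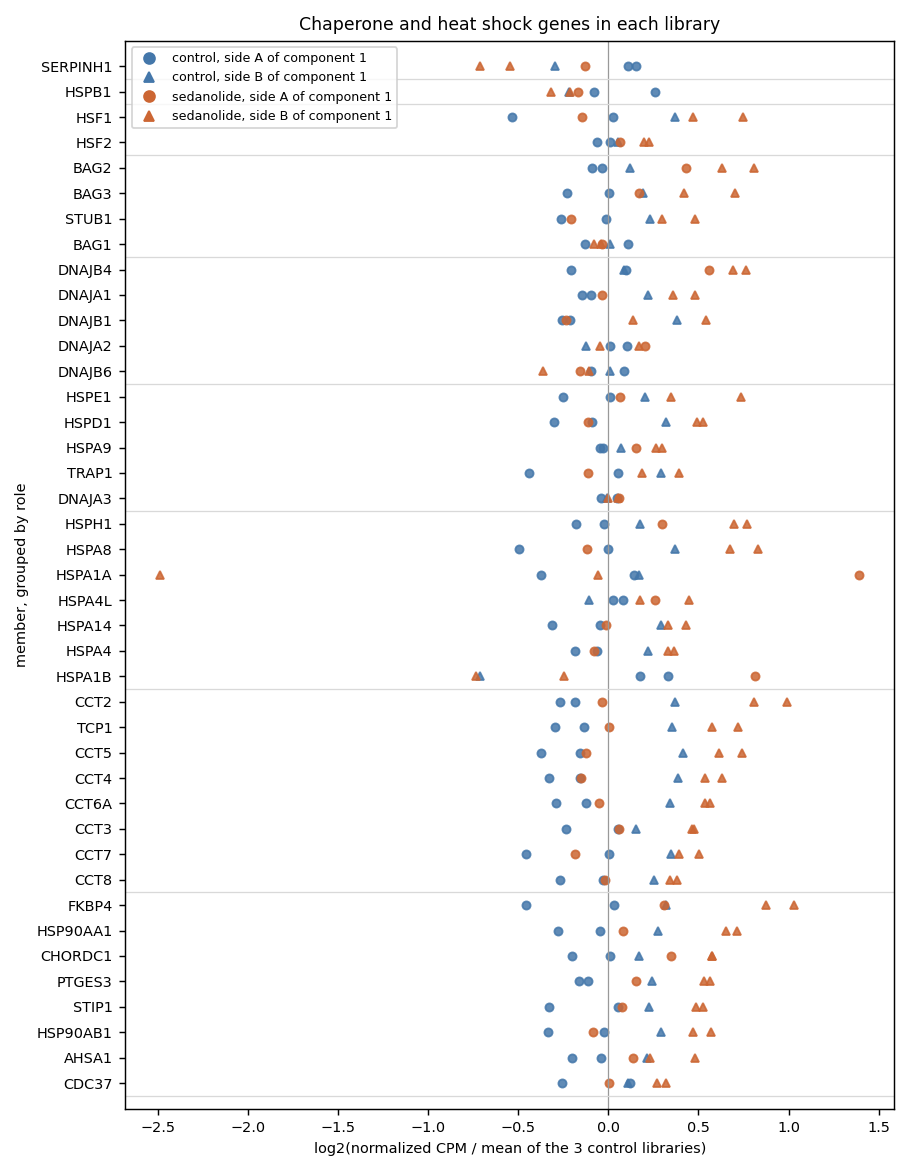
Normalized CPM of each of the 41 members in each library, as log2 relative to the mean of the 3 control libraries (horizontal axis), with members grouped by role (vertical axis), blue for control, orange for sedanolide, circles for side A and triangles for side B. For most members the triangles lie to the right of the circles of the same colour, and sedanolide 1 was the highest library in 30 members.

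The groups did not overlap in normalized CPM in 8 members. In 7 of them (HSPA4L, HSPA9, HSPH1, DNAJB4, BAG2, CHORDC1 and HSF2) all sedanolide libraries lay above all control libraries, which was the case for 8.69% of all genes tested. In DNAJB6, they lay below all control libraries, as in 9.66% of all genes tested. In TPM, the groups of HSPA4L, HSF2 and DNAJB6 overlapped, whereas those of HSPA9, HSPH1, DNAJB4, BAG2 and CHORDC1 did not. The libraries were ordered in much the same way in many members. Sedanolide 1 was the highest library in 30 members, and control 2 was the lowest in 29. These libraries were also the ends of component 1 (45.99 and -40.98), and the same counts were not taken over all genes tested. The members together took 1.81%, 1.54% and 2.27% of the counts in the control libraries, as against 2.70%, 2.51% and 1.80% in the sedanolide libraries. The share in sedanolide 3 was lower than in controls 1 and 3, and the groups overlapped. All side B libraries lay above all side A libraries in 25 members (61.0%), compared with 23.1% of all genes tested, and below them in 3 (HSPA1B, HSPB1 and SERPINH1; 7.32%), compared with 21.0%.

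As the members varied with the side, differences were also taken inside each side, and the side was added to the model. On side A (sedanolide 3 against controls 1 and 2), the log2 difference was positive in 36 members with a median of 0.15, and on side B (sedanolide 1 and 2 against control 3), it was positive in 34 with a median of 0.21. It was positive on both sides in 33 members and negative on both in 4. Over all genes tested, the medians were 0.01 on both sides, and 5162 were positive on both. With this side term, the median over the members was 0.18, 1 member (DNAJB4) passed the FDR and fold change thresholds, compared with 2.7% of all genes tested, and 4 passed the FDR alone. The side was read from the same CPM values that are tested here, so that p-values with the side term are conditional on the measured outcome, and calls over all genes tested were 381 with it and 95 without it. The 4 members were BAG2, DNAJB4, HSPH1 and CHORDC1, all higher with sedanolide, as were 1.75% of all genes tested. With DESeq2, 3 members (BAG2, DNAJB4 and HSPH1) passed both thresholds, compared with 328 (2.33%) of all genes tested, and with limma-voom 0 did. The study names the same method and thresholds, run in a web application, but reports far fewer genes. The DESeq2 calls given here are therefore not the result of the study, and the reason for the difference was not tested.

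**Figure D2:**
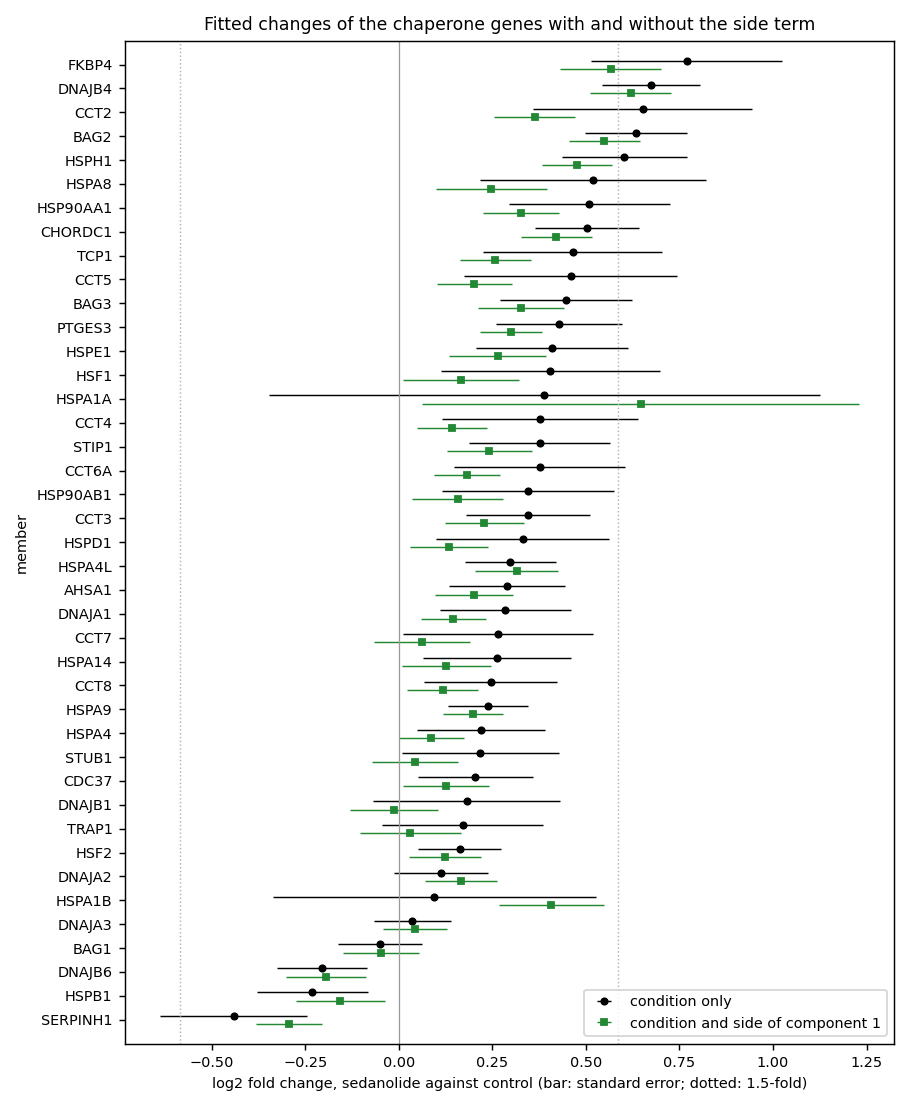
Log2 fold change of each member, sedanolide against control (horizontal axis), with its standard error as a bar, in the model with the condition only (black circles) and in the model that adds the side of component 1 (green squares); dotted lines mark a fold change of 1.5. The standard errors of most members are shorter with the side term, the median over members moves from 0.33 to 0.18, and DNAJB4 remains to the right of the dotted line.

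**Figure D3:**
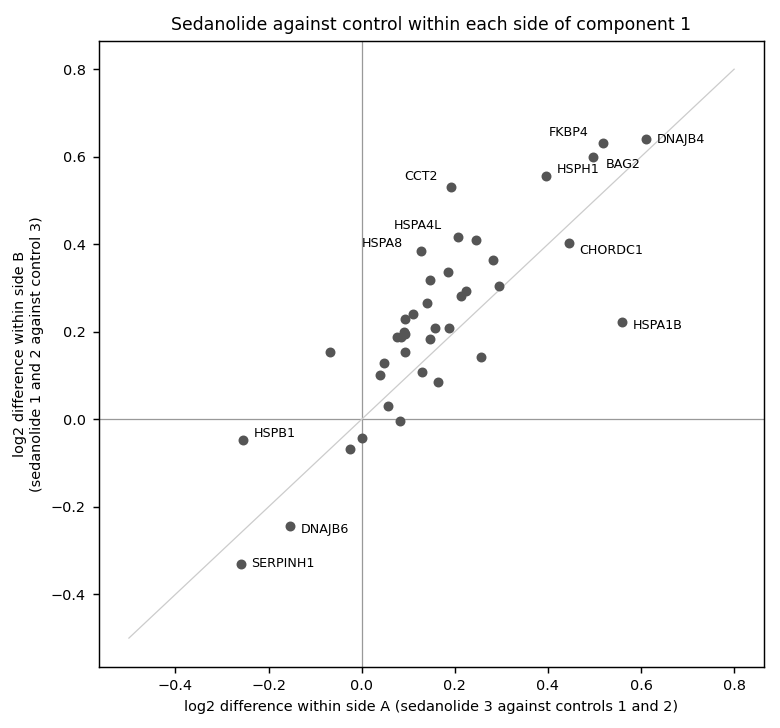
Log2 difference between sedanolide and control within side A (horizontal axis) and within side B (vertical axis) for 40 members, with the line of equal values in grey; HSPA1A, at 2.21 to 40.1 counts per library, is not drawn. DNAJB4, FKBP4, BAG2 and HSPH1 lie at the upper right, and SERPINH1, DNAJB6 and HSPB1 are negative on both sides.

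Among the HSP70 and HSP110 genes, all 7 had positive log2 fold changes (median 0.30), from 0.09 (HSPA1B) to 0.60 (HSPH1), and 2 had positive values with an unadjusted p-value under 0.05 (5.35% of all genes tested). HSPH1 (ENSG00000120694; chr13:31134973-31162388) codes for HSP110, a nucleotide exchange factor of HSP70. Its level was 131.5, 118.1 and 151.1 CPM in the control libraries 1 to 3 and 227.6, 216.5 and 164.1 CPM in sedanolide 1 to 3. All sedanolide libraries were above all controls, with sedanolide 3 nearest to them. The mean was 133.5 ± 16.6 CPM in control and 202.7 ± 34.0 CPM with sedanolide (SD, n = 3), which gave a fitted log2 change of 0.60 (standard error, SE, of 0.167, adjusted p = 0.220 with edgeR). With the side term, it was 0.48 (adjusted p = 0.0271), and the log2 difference was 0.40 on side A and 0.56 on side B. Over 16 alternatives, the adjusted p-value of HSPH1 was 0.0271 to 0.900.

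HSPA4L, an HSP110 relative, had values of 43.1, 44.8 and 39.4 CPM in controls and 48.0, 57.8 and 50.8 CPM in sedanolide libraries, and the groups did not overlap. HSPA4L had a log2 fold change of 0.30 (SE 0.122, adjusted p = 0.395), with 0.21 within side A, 0.42 within side B and 0.32 with the side term (adjusted p = 0.157). HSPA8, the constitutive HSC70 of the cytosol, was the most abundant gene of this group, with 1859 ± 366 TPM in control and 2354 ± 532 TPM in sedanolide-treated cells in the table normalized for length. Its counts gave 2186, 1552 and 2822 CPM in controls and 3888, 3495 and 2012 CPM in sedanolide libraries, and sedanolide 3 lay below 2 of the 3 controls. For HSPA8, the log2 fold change was 0.52 with an SE of 0.302 (adjusted p = 0.554). It was 0.13 within side A, 0.39 within side B and 0.25 with the side term (adjusted p = 0.410), and it ranged from 0.32 without control 2 to 0.76 without sedanolide 3. HSPA4 and HSPA14 had log2 fold changes of 0.22 and 0.26, with overlapping groups. HSPA14 shares 318 exon bases on the same strand with MSANTD7, whose counts were 180% of those of HSPA14.

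HSPA1A and HSPA1B, the classical genes of inducible HSP70, were ordered differently across libraries than most members. They lie 12195 bases apart on chromosome 6 (starts of the genes), and their coding sequences of 1926 bases differ at 4 positions, none of which changes any of the 641 residues. Reads of one gene can therefore be assigned to the other, and the division between them is uncertain. HSPA1A was given 10.9, 10.6 and 11.9 expected counts in the control libraries and 2.21, 14.7 and 40.1 in the sedanolide libraries, which is 0.242% to 1.33% of the pair. For HSPA1A, the log2 fold change was 0.39 with an SE of 0.737 (adjusted p = 0.864), and it ranged from -0.69 without sedanolide 3 to 0.85 without sedanolide 1. HSPA1B was at 102.9, 92.4 and 49.7 CPM in controls and at 49.0, 68.9 and 143.6 CPM in sedanolide libraries. Its highest and its lowest library were both sedanolide libraries, and sides A and B did not overlap, with side A the higher. The log2 fold change of HSPA1B was 0.09 (SE 0.432, adjusted p = 0.945), 0.56 within side A and 0.22 within side B, and 0.41 with the side term (adjusted p = 0.151, and 0.151 to 0.997 over 17 alternatives). The sum of both genes gave 0.10 (SE 0.432, adjusted p = 0.944). In TPM, HSPA1B was at 0.0319, 0.0420 and 0.0131 of HSPA8 in controls and at 0.00956, 0.0145 and 0.0509 in sedanolide libraries, and the groups overlapped.

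Of the 5 J-domain co-chaperones, which deliver clients to HSP70 and start its ATP hydrolysis, 4 had positive log2 fold changes (median 0.18). DNAJB4 (ENSG00000162616; chr1:77979175-78017964), a J-domain protein of the cytosol, had the smallest p-value of all members. Its level was 27.6, 34.2 and 33.9 CPM in controls and 51.6, 54.1 and 46.9 CPM in sedanolide libraries. All sedanolide libraries lay above all controls, and sedanolide 3 was the lowest of them. The mean was 31.9 ± 3.69 CPM in control and 50.9 ± 3.62 CPM with sedanolide (SD, n = 3), which gave a fitted log2 change of 0.67 (SE 0.131, adjusted p = 0.0944 with edgeR). The difference was 0.61 within side A and 0.64 within side B, and 0.62 with the side term (adjusted p = 0.0158). With DESeq2, the adjusted p-value was 0.00066, and over 16 alternatives it was 0.00066 to 0.696. DNAJB4 shares 78 exon bases on the same strand with GIPC2, whose counts were 65.3% of those of DNAJB4, so that some reads could belong to either gene.

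DNAJB1 (HSP40), a partner of inducible HSP70, was at 82.4, 79.9 and 124.4 CPM in controls and at 138.9, 105.0 and 81.2 CPM in sedanolide libraries. The groups overlapped, and sedanolide 3 was close to controls 1 and 2. DNAJB1 had a log2 fold change of 0.18 (SE 0.250, adjusted p = 0.809), which was -0.01 with the side term, -0.04 without sedanolide 1 and 0.42 without control 3. DNAJB1 shares 525 exon bases on opposite strands with TECR, whose counts were 158% of those of DNAJB1, and the strand setting of the authors' counting is not given. DNAJB6, a suppressor of protein aggregation, had the lowest log2 fold change of the group with -0.21 (SE 0.120, adjusted p = 0.554). Its values were 71.4, 62.9 and 67.7 CPM in controls and 52.3, 62.5 and 60.2 CPM in sedanolide libraries, and the groups were separated by less than 1 CPM. DNAJA1 and DNAJA2 had values of 0.28 and 0.11, with overlapping groups.

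**Figure D4:**
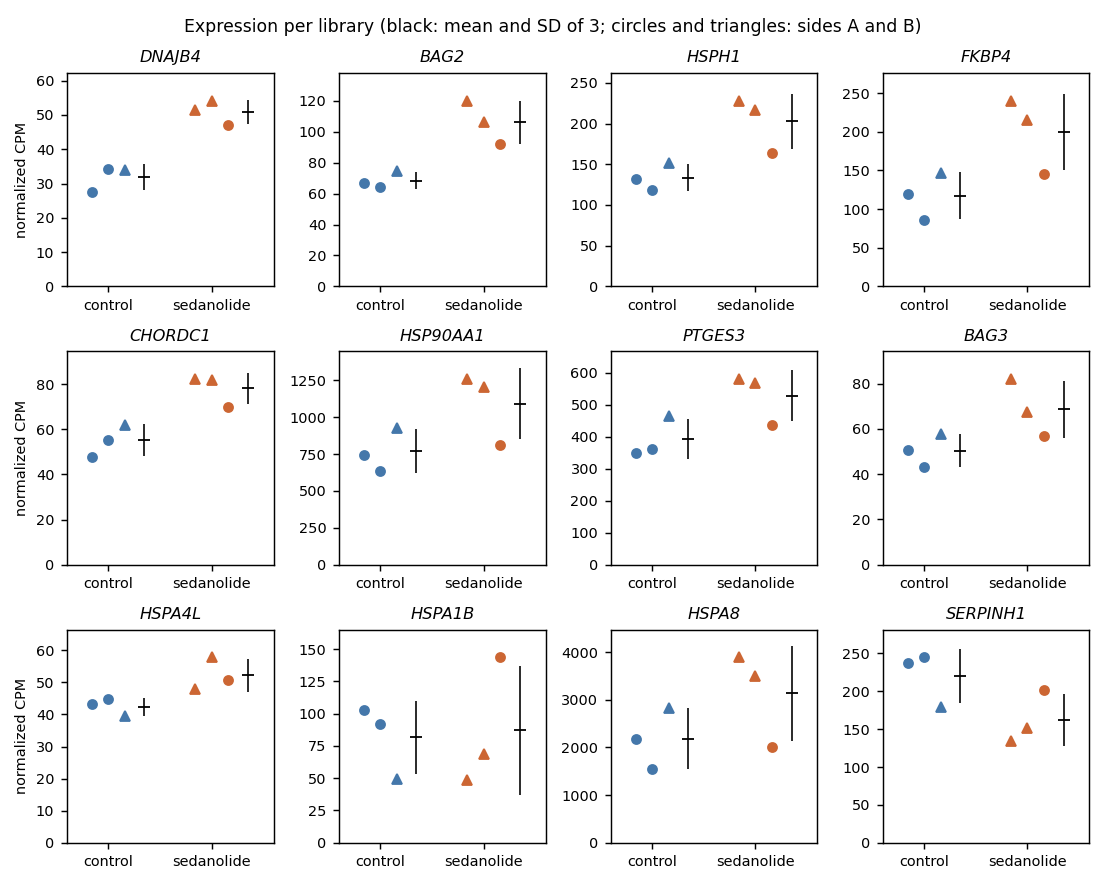
Normalized CPM (vertical axes, starting at 0) of 12 members in the 3 control and the 3 sedanolide libraries, with circles for side A, triangles for side B and black bars for mean and SD. DNAJB4, BAG2, HSPH1, CHORDC1 and HSPA4L show no overlap between the groups, whereas in FKBP4, HSP90AA1, PTGES3 and BAG3 sedanolide 3 lies below control 3.

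The BAG proteins exchange the nucleotide of HSP70, and STUB1 (CHIP) is a ubiquitin ligase that marks its clients. Of these 4 genes, 3 had positive log2 fold changes (median 0.33), and BAG1 had the lowest with -0.05. BAG2 (ENSG00000112208; chr6:57172326-57189833), an inhibitor of CHIP, had the highest. Its level was 66.7, 64.2 and 74.4 CPM in controls and 119.9, 106.1 and 92.4 CPM in sedanolide libraries, and the groups did not overlap. The mean was 68.4 ± 5.33 CPM in control and 106.1 ± 13.7 CPM with sedanolide (SD, n = 3), which gave a fitted log2 change of 0.63 (SE 0.136, adjusted p = 0.130 with edgeR). The difference was 0.50 within side A and 0.60 within side B, and 0.55 with the side term (adjusted p = 0.0150). With DESeq2, the adjusted p-value was 0.00173, and over 16 alternatives it was 0.00173 to 0.788. BAG2 shares 2842 exon bases on opposite strands with RAB23, whose counts were 12.8% of those of BAG2.

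BAG3, which links HSP70 to autophagy and is a known target of HSF1, was at 50.6, 43.0 and 57.7 CPM in controls and at 81.9, 67.4 and 56.7 CPM in sedanolide libraries. Sedanolide 3 lay just below control 3. BAG3 had a log2 fold change of 0.45 (SE 0.177, adjusted p = 0.383), with 0.28 within side A, 0.36 within side B and 0.33 with the side term (adjusted p = 0.160), and 0.30 without sedanolide 1. STUB1 had a log2 fold change of 0.22, and the sign differed between the sides (-0.07 on side A and 0.15 on side B).

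All 8 genes of the HSP90 group had positive log2 fold changes (median 0.40), from 0.20 (CDC37, the kinase co-chaperone) to 0.77 (FKBP4), and 4 had positive values with an unadjusted p-value under 0.05 (5.35% of all genes tested). All 8 were positive within both sides, as were 5162 of the 14104 features tested. FKBP4 (FKBP52; ENSG00000004478; chr12:2794970-2805423), an immunophilin of steroid receptor complexes, was at 120.2, 85.6 and 146.9 CPM in controls and at 239.9, 215.6 and 145.4 CPM in sedanolide libraries. Sedanolide 3 lay slightly below control 3, and the groups overlapped. The mean was 117.6 ± 30.7 CPM in control and 200.3 ± 49.1 CPM with sedanolide (SD, n = 3), which gave a fitted log2 change of 0.77 (SE 0.255, adjusted p = 0.297 with edgeR), the highest of all members. The difference was 0.52 within side A and 0.63 within side B, and 0.57 with the side term (adjusted p = 0.0519). Over 16 alternatives, the adjusted p-value of FKBP4 was 0.0519 to 0.921.

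CHORDC1 (morgana; ENSG00000110172; chr11:90200429-90223077), an HSP90 co-chaperone, was at 47.9, 55.4 and 62.2 CPM in controls and at 82.3, 82.1 and 70.2 CPM in sedanolide libraries. The groups did not overlap. The mean was 55.2 ± 7.13 CPM in control and 78.2 ± 6.95 CPM with sedanolide (SD, n = 3), which gave a fitted log2 change of 0.50 (SE 0.139, adjusted p = 0.217 with edgeR), with 0.44 within side A and 0.40 within side B. It was 0.42 with the side term (adjusted p = 0.0450), and the adjusted p-value was 0.0432 with DESeq2 and 0.0432 to 0.899 over 16 alternatives. Of the members whose groups were separated upwards, CHORDC1 was the only gene with a match to the searched heat shock motif.

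The stress-inducible HSP90AA1 (ENSG00000080824; chr14:102080742-102139699) was at 742.9, 633.2 and 928.3 CPM in controls and at 1258, 1208 and 813.7 CPM in sedanolide libraries. Sedanolide 3 lay below control 3. HSP90AA1 had a log2 fold change of 0.51 (SE 0.215, adjusted p = 0.417), with 0.25 within side A, 0.41 within side B and 0.33 with the side term (adjusted p = 0.117). The constitutive HSP90AB1 was at 5320, 4282 and 6610 CPM in controls and at 8027, 7487 and 5089 CPM in sedanolide libraries, with overlapping groups and a log2 fold change of 0.35 (SE 0.229, adjusted p = 0.604). For HSP90AB1, the difference was 0.09 within side A, 0.23 within side B and 0.16 with the side term (adjusted p = 0.535), and it ranged from 0.20 without control 2 to 0.52 without sedanolide 3. HSP90AB1 was the most abundant member per length, at 3222 ± 469 TPM in control and 3772 ± 592 TPM in sedanolide-treated cells. The TPM ratio of HSP90AA1 to HSP90AB1 was 0.113, 0.121 and 0.114 in controls and 0.129, 0.131 and 0.128 in sedanolide libraries. This ratio did not overlap between the groups, and its mean was 0.116 ± 0.00430 in control and 0.129 ± 0.00169 in sedanolide-treated cells (SD, n = 3). It was chosen after the values were seen and was not tested.

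PTGES3 (p23), which stabilizes the closed form of HSP90, was at 349.7, 362.9 and 464.6 CPM in controls and at 579.7, 567.6 and 436.9 CPM in sedanolide libraries. The groups overlapped through sedanolide 3 and control 3. PTGES3 had a log2 fold change of 0.43 (SE 0.169, adjusted p = 0.382), with 0.29 within side A, 0.30 within side B and 0.30 with the side term (adjusted p = 0.0849). STIP1 (HOP), which passes clients from HSP70 to HSP90, and AHSA1, an activator of the HSP90 ATPase, had log2 fold changes of 0.38 and 0.29, with overlapping groups.

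The 5 mitochondrial chaperones had log2 fold changes from 0.04 (DNAJA3) to 0.41 (HSPE1), with a median of 0.24 and no unadjusted p-value under 0.05. HSPD1 (HSP60) and HSPE1 (HSP10), which form the chaperonin of the matrix, are transcribed from opposite strands at a shared start region on chromosome 2, where 135 exon bases overlap. HSPD1 was at 2701, 2338 and 3599 CPM in controls and at 4152, 4045 and 2666 CPM in sedanolide libraries, with a fitted log2 change of 0.33 (adjusted p = 0.624). HSPE1 was at 402.8, 336.7 and 461.6 CPM in controls and at 667.3, 508.8 and 419.0 CPM in sedanolide libraries, with a fitted log2 change of 0.41 (adjusted p = 0.483). In both, sedanolide 3 lay among the controls. With the side term, the fitted changes were 0.13 for HSPD1 and 0.26 for HSPE1. Per length, their levels in control cells were 2068 ± 341 TPM for HSPD1 and 1608 ± 142 TPM for HSPE1, and the ratio of HSPE1 to HSPD1 was 0.784 ± 0.0621 in control and 0.829 ± 0.113 in sedanolide-treated cells, a difference within the spread of the libraries. HSPA9 (mortalin), the HSP70 of the matrix, was the mitochondrial gene with separated groups, at 248.4, 245.8 and 266.2 CPM in controls and at 311.0, 304.6 and 281.4 CPM in sedanolide libraries, with a log2 fold change of 0.24 (SE 0.108, adjusted p = 0.440). TRAP1, the HSP90 of mitochondria, had a log2 fold change of 0.17.

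The 8 subunits of CCT/TRiC, which are assembled into 1 complex, had a like order of libraries. All 8 had positive log2 fold changes, from 0.25 (CCT8) to 0.65 (CCT2), with a median of 0.38, and all 8 were positive within both sides (5162 of the 14104 features tested). None of them had an unadjusted p-value under 0.05, and adjusted p-values were 0.440 to 0.718. The summed level was 3245, 2713 and 4278 CPM in the control libraries and 5191, 4863 and 3241 CPM in the sedanolide libraries. In each of the 8 genes, all side B libraries lay above all side A libraries. The log2 difference had a median of 0.14 within side A and of 0.24 within side B, and with the side term the median was 0.19. CCT2 was at 164.1, 154.5 and 240.8 CPM in controls and at 370.4, 326.5 and 181.9 CPM in sedanolide libraries, with a fitted log2 change of 0.65 (SE 0.293, adjusted p = 0.440), and with 0.19 within side A, 0.53 within side B and 0.36 with the side term (adjusted p = 0.106). Per length, CCT7 was the most abundant subunit, at 908 ± 242 TPM in control and 1045 ± 181 TPM in sedanolide-treated cells, and CCT2 the least abundant in control cells, at 183 ± 35.4 TPM, with 263 ± 77.4 TPM in sedanolide-treated cells. Between these in control cells lay CCT5 at 447 ± 103, CCT3 at 436 ± 28.0 and TCP1 at 429 ± 73.9 TPM, followed by CCT4 at 345 ± 67.6 TPM and by CCT6A and CCT8 at 231 ± 37.6 and 228 ± 24.7 TPM. CCT5, CCT3 and TCP1 differed from one another by less than their SD, and so did CCT6A and CCT8. TCP1 shares 454 exon bases on opposite strands with ACAT2, whose counts were 32.3% of those of TCP1.

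**Figure D5:**
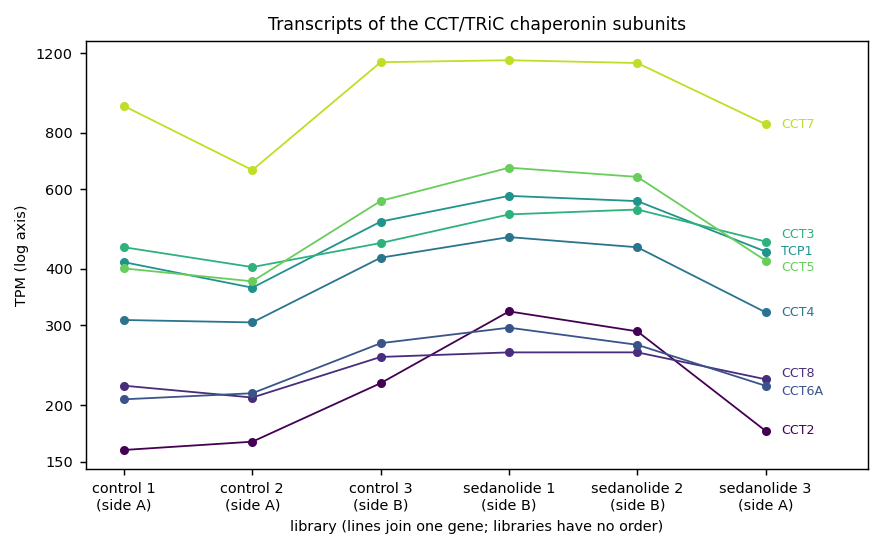
TPM of the 8 CCT/TRiC subunits (vertical axis, log scale) in each of the 6 libraries (horizontal axis); lines join the values of 1 gene and the libraries have no order. The subunits move together between libraries, with control 3, sedanolide 1 and sedanolide 2 (side B) above control 1, control 2 and sedanolide 3 (side A), except for CCT3, which was at 456 TPM in control 3 and at 460 TPM in sedanolide 3. CCT7 is the highest throughout.

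HSPB1 (HSP27), the small heat shock protein among the members, was at 66.9, 52.9 and 48.2 CPM in controls and at 48.3, 44.9 and 49.9 CPM in sedanolide libraries. The groups overlapped, and control 1 stood above the other 5 libraries. The log2 fold change of HSPB1 was -0.23 (SE 0.148, adjusted p = 0.592), with -0.25 within side A and -0.05 within side B, and it was -0.10 without control 1. SERPINH1 (chr11:75562056-75572783) had the lowest log2 fold change of the members, with -0.44 (SE 0.196, adjusted p = 0.435). Its level was 237.1, 244.7 and 179.0 CPM in controls and 134.3, 151.0 and 201.1 CPM in sedanolide libraries, and sedanolide 3 lay above control 3. The difference was -0.26 within side A and -0.33 within side B. Its promoter holds a match to the heat shock motif, as does that of DNAJB6, the other of these 7 members with a negative value.

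Of the heat shock factors, HSF1 was at 109.0, 73.7 and 138.2 CPM in controls and at 179.8, 148.3 and 96.7 CPM in sedanolide libraries, with overlapping groups. The log2 fold change of HSF1 was 0.40 (SE 0.293, adjusted p = 0.633), with 0.11 within side A, 0.24 within side B and 0.17 with the side term (adjusted p = 0.626). It was 0.19 without sedanolide 1, 0.20 without control 2 and 0.64 without control 3. HSF1 is controlled mainly as a protein, and its transcript does not report its activity. It shares 137 exon bases on opposite strands with DGAT1, whose counts were 44.3% of those of HSF1. HSF2 was at 24.7, 26.0 and 26.8 CPM in controls and at 30.2, 29.6 and 27.0 CPM in sedanolide libraries. The groups of HSF2 were separated by a small gap, and the log2 fold change was 0.16 (SE 0.111, adjusted p = 0.611).

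The 7 members with a match to the heat shock motif had a median log2 fold change of 0.35 and a range from -0.44 (SERPINH1) to 0.52 (HSPA8). The 29 members with a promoter but no match had a median of 0.29. Among these 29 were HSPA1A, HSPA1B, DNAJB1, HSPH1, HSPE1, HSPB1 and the known HSF1 target BAG3. The searched window of HSPE1 held no match, but the stretch given for HSPD1 (chr2:197500063-197500090) also lies before the GENCODE start of HSPE1 (197500140, plus strand). HSPE1 is therefore a member without a match only by its own window. Elements of another form, or outside the window, are missed by this search, so that the 29 are not members without heat shock elements. The antioxidant response element, to which NRF2 binds, was searched as TGACNNNGC in the same windows and was found in 10.9% of all promoters, in 13.2% of gene symbols and in 8 of the 36 members (22.2%). The median log2 fold change was 0.29 with this motif and 0.34 without it. For each motif, the values of members with and without a match overlapped. A match describes the letters of this window only.

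A wider list of 67 other chaperone genes was examined in the same fit (prefoldin, further HSP70, J-domain and small heat shock proteins, HSP90 helpers, mitochondrial chaperones and proteases, and regulators of heat shock factors). Of these, 62 were tested, 50 had positive and 12 negative log2 fold changes, and the median was 0.14. With edgeR, 0 passed both thresholds (0.674% of all genes tested), and with DESeq2 1 did (DNAJB2), compared with 2.33% of all genes tested. At an unadjusted p-value under 0.05, 9 were higher and 1 was lower, compared with 5.35% and 6.57% of all genes tested. The groups were separated upwards in 13 and downwards in 2, compared with 8.69% and 9.66%. This wider list, too, was chosen with earlier results of these data known. The strongly heat-inducible HSPA6 had 0 counts in all 6 libraries, which allows up to 3 counts per library, and HSPA2 (0 to 6 counts), DNAJA4 (4.06 to 10 counts), DNAJB5 (1 to 6 counts) and HSPB6 (0 to 4 counts) were too low to be tested.

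The smallest p-values among higher genes of this list belonged to HSPB8, CRYAB and PPID. HSPB8, a small heat shock protein that works with BAG3, was at 0.727, 0.424 and 0.396 CPM in controls and at 1.13, 1.31 and 1.31 CPM in sedanolide libraries (7 to 34 counts per library), with a fitted log2 change of 1.29 (SE 0.310, adjusted p = 0.164). CRYAB (alpha-B crystallin) was at 4.40 ± 0.440 CPM in control and 6.90 ± 0.783 CPM in sedanolide-treated cells, a fitted log2 change of 0.65 (adjusted p = 0.177). PPID (cyclophilin 40), an HSP90 co-chaperone, was at 64.7 ± 3.15 and 86.7 ± 5.09 CPM, with a fitted log2 change of 0.42 (adjusted p = 0.186, 0.0457 with the side term and 0.00823 to 0.907 over 16 alternatives). The groups did not overlap in any of these 3 genes. Among lower genes, the smallest p-values belonged to DNAJB2, DNAJC5 and HSPA12A. DNAJB2, a J-domain protein best known from neurons, was at 45.3, 40.0 and 37.3 CPM in controls and at 24.6, 25.2 and 30.2 CPM in sedanolide libraries, without overlap, and its log2 fold change was -0.62 (SE 0.136, adjusted p = 0.133, 0.0185 with the side term, 0.0110 with DESeq2 and 0.0110 to 0.799 over 16 alternatives). DNAJC5 and HSPA12A had log2 fold changes of -0.26 (adjusted p = 0.422) and -0.20 (adjusted p = 0.676).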

How the data were processed

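RNA-seq libraries of control cells and of cells exposed to sedanolide (3 each) were grouped by the treatment label. According to the methods of the study and the submitters' processing notes, mRNA was captured, directional libraries were sequenced as paired ends, and reads were handled with FastQC, Trimmomatic, STAR (GRCh38) and RSEM, whose versions, annotation release and strand setting are not given in the sources used here. The authors deposited expected counts from RSEM, not normalized, for 61541 genes and 2 reporters, and a second deposited table with log2(TPM + 1) values for 11006 rows, which holds 40 of the 41 members (not HSPA1A). The TPM values given in the text were taken back from this log2 table.

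Expected counts were rounded, filtered with filterByExpr (14102 genes and 2 reporters left), normalized by TMM and tested with the robust quasi-likelihood test of edgeR 4.0.16 in R 4.3.3 with the condition as the only term. P-values were adjusted by the Benjamini-Hochberg method over all features. The biological coefficient of variation was 0.199. All tests are two-sided. The standard error of a log2 fold change is approximate, taken as its absolute value divided by the square root of the test's F statistic. CPM are normalized by TMM and given as mean ± SD of 3 libraries. Alternatives were DESeq2 1.42.0, limma-voom and limma 3.58.1 on the second table (pseudocount 1 or 0.1), median-of-ratios or library size scaling, no filter, no robust prior, the replicate number or the side of component 1 as a term, and each library left out. Coordinates are from GENCODE 44, promoters and motif stretches from RefSeq (GRCh38.p14). A count of 0 was taken to allow 3 counts, which covers counting error only.

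The procedure was run on simulated data. The settings and outcome of that run are not given here, so that no conclusion about the results above is drawn from it. Statistics are given in full for members past both thresholds or with an unadjusted p-value under 0.05 and for HSPA1A, HSPA1B, HSPA8, HSP90AA1, HSP90AB1, DNAJB1, HSPH1, HSPB1 and HSF1. The others are given by their group, with the lowest and highest member named, and of the other chaperone genes the 3 with the smallest p-value in each direction. Values of further members were added after they were seen. The members and lists were chosen with earlier results of these data known. Counts within groups differed by more than sampling noise (chi-square per degree of freedom of 20.9 to 149), so that no library was a repeat sequencing run of another in its group. Control libraries were not compared with sedanolide libraries in this way. The test cannot show whether libraries came from separate cultures. Pseudogenes were looked up by name for HSPA8, HSP90AB1, HSP90AA1, HSPD1, HSPE1, HSPA9, HSPB1, DNAJA1, PTGES3 and STIP1. They had at most 0.203% of the counts of the member (HSPD1). Pseudogenes of the other members were not examined.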

Additional observations from a re-analysis of the deposited data

How the results depend on the processing

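The count of members called at both thresholds was 0 except with the term for the side (1) and with DESeq2 (3), and that of other chaperone genes was 0 except with DESeq2 (1). The count of members with an unadjusted p-value under 0.05 was 9, and it was 4 with the replicate block, 14 with the side term and 4 to 22 when single libraries were left out. The median log2 fold change of the members was 0.331, with a range of 0.215 to 0.477 when single libraries were left out, 0.183 with the side term and 0.221 in the TPM table. Signs changed for HSPA1A with limma-voom (-0.172) and without sedanolide 3 (-0.686, where leaving out single libraries gave up to 0.851), for HSPA1B with the replicate block (-0.0155), without control 3 (-0.161), without sedanolide 3 (-0.469, up to 0.376) and with log2(TPM + 1) (-0.101) or log2(TPM + 0.1) (-0.104), for TRAP1 without control 2 (-0.00918, up to 0.344), for DNAJA3 with library size only (-0.00753) and in the TPM table (-0.0844 and -0.0852), and for DNAJB1 with the side term (-0.0142) and without sedanolide 1 (-0.039, up to 0.419). Of 410 values of single members under settings that keep all libraries, 398 kept direction and side of the threshold, and of 246 with a library left out, 241 did. The cause of these changes was not tested. Deviations of same-numbered libraries from their group means had no positive correlation (-0.133, -0.295 and -0.73). With the replicate block, 0 of all genes tested were called. Same-numbered libraries lay on opposite sides of component 1, and each group has 3 libraries. These correlations therefore cannot show whether libraries of the same number shared a culture or a day of handling. Low counts stood behind HSPA1A (2.21 to 40.1 per library) and HSPB8 (7 to 34), and the effect of depth on their tests was not tested.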
